A study of Mus musculus with 28 samples.

Results

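The genes described here are 54 members of the cell division machinery, from the G1 cyclins and the origin licensing factors to the motors of cytokinesis, measured in mouse bone marrow-derived macrophages with one-colour expression arrays. They were taken by name from the array design (Cdk1 under its older name Cdc2a), with the brightest probe standing for a gene that had several, and a gene was kept if its probe was well above background on 3 or more arrays. All 54 were found and kept, of 27670 gene names on the array, of which 22394 passed the same filter. The probes of 53 members were well above background on all 28 arrays, and that of Ttk on 22.

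Bone marrow of C57BL6/J mice aged 8 to 12 weeks (given as 2 males and 1 female), pooled over several animals, was grown into macrophages in 200 ng/ml human recombinant CSF1, the growth factor that drives macrophage proliferation, and the cells were harvested and replated in CSF1 on day 6. Every group therefore consisted of cells kept in CSF1. On day 7 the cells were left untreated or were primed for 18 h with IL-4 (10 ng/ml), the cytokine of alternative activation, or with IFN-γ (100 U/ml), the cytokine of classical activation. LPS (10 ng/ml), a bacterial ligand of the receptor TLR4, was added to unprimed, IL-4 primed or IFN-γ primed cells for the last 4 h. The study set out to examine how priming with IL-4 alters the response to LPS. The groups held 7 untreated arrays and 7 LPS arrays (experiments A to G), 4 IL-4 and 4 IL-4 plus LPS arrays (A, B, C and G), and 3 IFN-γ and 3 IFN-γ plus LPS arrays (E, F and G), described as independent experiments. In a processed table of the same series, 26 of 28 columns correlated best with an array of another label, 13 of them from another group; every value here follows the labels of the scanner files, and which of the 2 sets of labels is right was not settled.

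A macrophage in CSF1 enters the cell cycle through D-type cyclins with Cdk4, which release E2F transcription factors from the RB family. E2F targets supply the licensing factors (Cdc6, Cdt1 and the Mcm helicase), the nucleotide enzymes and cyclin E with Cdk2, which start DNA synthesis. Genes of G2 and mitosis, such as Cdk1, cyclin B, Plk1 and the kinesins, peak later, through B-Myb, Foxm1 and relief from the repressor DREAM. This complex acts at the promoter element called CHR. The CCAAT box is a separate promoter element. LPS and IFN-γ are both known to stop CSF1-driven macrophage proliferation. Because RNA was taken from whole cultures, fewer cells in a cell cycle phase and less of an RNA per cell cannot be told apart in any value given here.

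Promoter letters were compared between the roles. RefSeq promoter windows (build GRCm38.p6, from 250 bases before to 50 after the transcription start) were held for 44 of the 54 members. An E2F site was searched as TTTCCCGC, TTTCGCGC, TTTGCCGC or TTTGGCGC, the CHR as TTTGAA and the CCAAT box as CCAAT, each on both strands, with overlapping E2F sites counted separately. An E2F site was found in 6 of 8 licensing members, in 2 of 8 G1 members, in 1 of 9 G2/M members, and in 0 of 6 synthesis and checkpoint, 0 of 11 spindle and 0 of 2 mitotic chromosome members, against 704 of all 27025 genes with such a window (2.6%). The CHR letters were found in 7 of 9 G2/M members, 7 of 11 spindle members and 2 of 2 members of mitotic chromosomes, but in 1 of 8 licensing, 1 of 8 G1 and 0 of 6 synthesis and checkpoint members, against 20.2% of all genes. A CCAAT box was found in 33 of the 44 members and in 41.1% of all genes.

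The 160 bases before the start are shown for 3 licensing members and 3 later members, as examples of these classes whose expression is described below. They are Mcm5 (chr8:75109349-75109508, plus strand), Mcm6 (chr1:128359706-128359865, minus strand) and Cdc6 (chr11:98907991-98908150, plus strand), and then Cdk1 (chr10:69352913-69353072, minus strand), Cdc20 (chr4:118437344-118437503, minus strand) and Mki67 (chr7:135716380-135716539, minus strand). Capitals mark matches to any of the 3 motifs on either strand. Overlapping E2F sites run together in Mcm5 and Mcm6, and Cdk1 carries both an E2F site and CHR letters. A match is a description of the letters and not a measured binding site.
Mcm5: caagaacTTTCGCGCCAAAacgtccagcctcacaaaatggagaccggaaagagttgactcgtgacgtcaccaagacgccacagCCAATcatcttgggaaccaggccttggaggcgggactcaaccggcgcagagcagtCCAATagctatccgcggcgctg
Mcm6: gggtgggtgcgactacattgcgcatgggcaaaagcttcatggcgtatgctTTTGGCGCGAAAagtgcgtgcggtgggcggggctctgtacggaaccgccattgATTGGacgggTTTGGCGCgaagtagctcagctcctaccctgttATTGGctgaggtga
Cdc6: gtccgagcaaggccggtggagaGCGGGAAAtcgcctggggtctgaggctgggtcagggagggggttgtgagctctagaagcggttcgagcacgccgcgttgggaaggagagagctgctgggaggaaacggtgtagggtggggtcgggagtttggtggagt
Cdk1: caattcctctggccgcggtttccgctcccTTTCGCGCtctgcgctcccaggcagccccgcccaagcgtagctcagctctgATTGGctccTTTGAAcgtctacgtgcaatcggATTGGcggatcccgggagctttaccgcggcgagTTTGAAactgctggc
Cdc20: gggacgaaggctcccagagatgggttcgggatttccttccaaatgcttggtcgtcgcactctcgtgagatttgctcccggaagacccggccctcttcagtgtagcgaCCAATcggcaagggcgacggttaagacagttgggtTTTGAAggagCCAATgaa
Mki67: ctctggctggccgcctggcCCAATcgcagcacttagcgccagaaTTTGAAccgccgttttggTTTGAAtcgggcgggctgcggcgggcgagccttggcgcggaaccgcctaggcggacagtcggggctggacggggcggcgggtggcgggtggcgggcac

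Levels are given as log2 of the scanner's processed signal relative to the 75th percentile of its array, so that 0 is the level of that percentile and a difference of 1 is a doubling; a level of one gene is never set against that of another, since probes differ in brightness. Changes are from a limma fit of the 6 group means over all 22394 genes, with standard errors (SE) and two-sided p-values adjusted by Benjamini-Hochberg over all of them, and a gene rose or fell where the adjusted p was under 0.05. Across arrays the 75th percentile lay between 582 and 2113 intensity units, and 60.0% to 78.5% of probes were well above background. Of 8 macrophage markers, 7 or 8 were well above background on every array of each group, and their summed linear level was 512 to 1610 times that of the 75th percentile, against 0.184 to 0.813 for T cell, 0.745 to 7.16 for B cell, 0.132 to 0.892 for progenitor and 0.184 to 1.06 for fibroblast markers. Markers of dendritic cells summed to 24.1 to 66.8 in the 8 arrays with IL-4 and to 1.61 to 16.4 in the others, and neutrophil markers to 12.8 to 49.3 over all arrays. The part of these other cell types in the results was not tested.

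The arrays lay on 10 slides scanned on 5 days, and the mean level of the 54 members moved with the scan day. The lowest array of the untreated, LPS, IL-4 and IL-4 plus LPS groups was in each case the one scanned on day 2, and the highest array of all 6 groups was the one scanned on day 5. In the untreated group the mean member level ran from 1.60 to 2.79 with a median of 2.46, and in the LPS group from -0.09 to 1.63 with a median of 0.81. It ran from 1.73 to 2.75 with IL-4, from -0.36 to 1.54 with IL-4 plus LPS, from 0.40 to 1.83 with IFN-γ and from -0.26 to 0.71 with IFN-γ plus LPS. Values within scan days, and with the slide as a block in the fit, are therefore given beside the counts. Within a scan day a group held 1 or 2 arrays, and the untreated, LPS and IFN-γ arrays of a day carried different experiment letters. The IFN-γ and IFN-γ plus LPS arrays of experiment G were alone on their slide. With the slide as a block, comparisons of these groups with the other groups therefore rest mainly on experiments E and F.

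**Figure D1:**
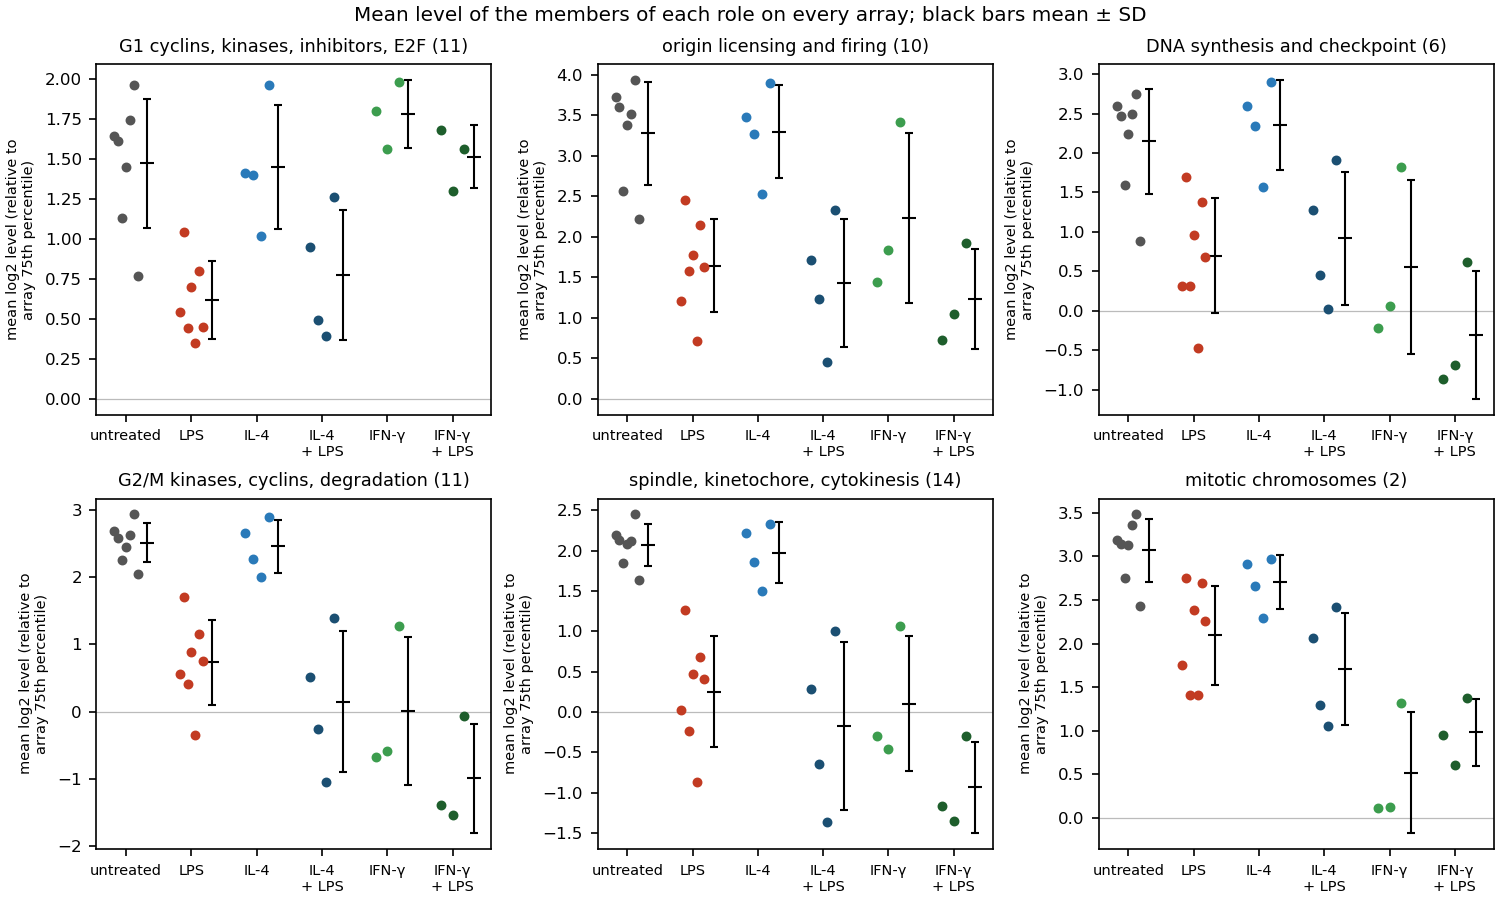
Mean log2 level of the members of each of 6 roles (number of members in brackets) on each of the 28 arrays, relative to the array's 75th percentile; points are arrays, black bars the mean and SD of a group. In the G2/M and spindle panels every LPS, IL-4 plus LPS, IFN-γ and IFN-γ plus LPS array lies below every untreated array, while in the G1 panel the IFN-γ arrays (1.56 to 1.98) lie within the range of the untreated ones (0.77 to 1.96) or just above it.

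LPS for 4 h lowered most of the cell cycle genes in otherwise untreated macrophages. Of the 54 members, 40 fell and 3 rose against untreated cells, where 42.4% of all genes tested changed (20.9% higher and 21.6% lower). The median change of the members was -1.59 on the log2 scale, against 0.06 for all genes. The groups did not overlap for 26 members, against 25.4% of all genes. On each of the 5 scan days taken alone, 45 to 49 members were lower with LPS, and with the slide as a block 44 fell and 4 rose, where 57.8% of all genes changed. The 3 that rose were the cyclin Ccnd2, the CDK inhibitor Cdkn1a (p21) and the replication initiation factor Mcm10.

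Among the 11 G1 genes, 7 fell and 2 rose with LPS. E2f2, an E2F activator, lay at 2.36, 2.87 and 3.31 in untreated cells (lowest, median and highest of 7) and at -2.24, -1.71 and -1.18 with LPS. The groups were far apart, and the change of -4.56 ± 0.21 (SE), or 23.6-fold, was the largest of any member (adjusted p = 4.51e-15). Ccnd1, the cyclin D1 partner of Cdk4 and an early target of CSF1, went from 2.05, 4.42 and 4.73 to 0.08, 1.17 and 2.31, a change of -2.70 ± 0.44 (adjusted p = 1.47e-05) with groups that overlapped slightly. Ccne2, a cyclin of the Cdk2 complex, went from -2.51, -0.39 and 0.15 to -4.55, -3.62 and -3.00, a change of -2.89 ± 0.42 (adjusted p = 2.71e-06). The groups did not overlap, and Cdk2 (-1.76), E2f1 (-1.57), Cdk4 (-0.88) and Ccnd3 (-0.88) also fell. The other E cyclin, Ccne1, had a change of 0.38 ± 0.32 that did not pass (adjusted p = 0.392).

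Ccnd2, a D-type cyclin like Ccnd1, rose with LPS. It lay at 1.13, 2.90 and 3.74 in untreated cells and at 5.26, 5.60 and 6.48 with LPS, a rise of 3.06 ± 0.35, or 8.34-fold (adjusted p = 5.17e-08). Every LPS array was above every untreated array. Cdkn1a rose from 3.10, 3.46 and 3.76 to 4.28, 5.58 and 5.90, a change of 1.99 ± 0.27 (adjusted p = 1.12e-06), again with no overlap. The related inhibitor Cdkn1b (p27) had a change of 0.42 ± 0.24 that did not pass (adjusted p = 0.165) and rose by 0.51 ± 0.13 with the slide as a block (adjusted p = 0.00254).

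In the licensing group of 10, 7 fell with LPS and 1 rose. Gmnn, which codes for the licensing inhibitor geminin, went from 4.06, 4.94 and 5.38 to 0.41, 1.58 and 2.31, a change of -3.43 ± 0.35 or 10.8-fold (adjusted p = 8.1e-09). Cdc6, which loads the helicase, went from -1.94, -0.39 and 0.00 to -4.70, -4.03 and -3.40, a change of -3.30 ± 0.32 or 9.88-fold (adjusted p = 3.62e-09). Both genes had groups that did not overlap. Mcm2, a helicase subunit, had the widest scatter of the 3 leading members, from -0.11, 1.72 and 2.02 to -2.90, -0.94 and 0.36, with a change of -2.40 ± 0.56 (adjusted p = 0.000848). The 6 helicase subunits did not respond evenly. Mcm7 (-1.93), Mcm3 (-1.75) and Mcm4 (-1.42) fell with Mcm2, while Mcm5 (-1.04 ± 0.43, adjusted p = 0.0555) and Mcm6 (-0.39 ± 0.46, adjusted p = 0.569) did not pass, although with the slide as a block Mcm5 fell by 1.21 ± 0.19 (adjusted p = 3.8e-05).

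Mcm10, which joins the helicase when origins fire, was the exception. It lay at 2.43, 3.15 and 3.95 in untreated cells and at 3.66, 4.08 and 4.65 with LPS, a change of 0.95 ± 0.33 or 1.93-fold (adjusted p = 0.0214). The groups overlapped in part, but the LPS arrays were higher on each of the 5 scan days, by 0.50 to 1.49. The gene was measured by a single probe.

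Of the 6 genes of DNA synthesis and its checkpoint, 4 fell with LPS and 0 rose. Rrm2, the small subunit of ribonucleotide reductase, went from -0.67, 1.01 and 1.51 to -4.83, -2.75 and -0.70, a change of -3.13 ± 0.67 (adjusted p = 0.000375). Chek1, a checkpoint kinase, went from -3.77, -1.41 and -1.24 to -5.16, -4.16 and -3.42 (change -2.29 ± 0.36, adjusted p = 9.08e-06), and Tk1, thymidine kinase, from 1.37, 2.70 and 3.23 to -0.85, 0.55 and 1.92 (change -2.02 ± 0.44, adjusted p = 0.000476). The Rrm2 groups were just apart, and those of Chek1 and Tk1 overlapped. The large subunit Rrm1 fell less, by 0.99 ± 0.37 (adjusted p = 0.0352), and the sliding clamp Pcna (-0.07 ± 0.25) and thymidylate synthase Tyms (-0.18 ± 0.39) did not pass.

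Of the 11 G2/M genes, 9 fell with LPS. Cdc20, the activator of the anaphase-promoting complex, went from 3.60, 3.73 and 4.21 to -0.30, 1.03 and 2.21, a change of -2.78 ± 0.43 or 6.86-fold (adjusted p = 5.9e-06). The mitotic kinase Nek2 went from 0.12, 0.57 and 0.97 to -3.15, -1.72 and -0.73 (change -2.42 ± 0.39, adjusted p = 1.11e-05), and the spindle pole kinase Aurka from 2.81, 3.40 and 3.93 to -0.20, 1.13 and 1.79 (change -2.38 ± 0.36, adjusted p = 4.14e-06). None of these 3 genes had overlapping groups. The cyclin Ccna2 (-2.26), Plk1 (-2.11), Foxm1 (-2.02), Ccnb1 (-1.55), Cdca3 (-1.51) and Cdk1 (-1.20) fell as well. Ccnb2 (-0.81 ± 0.34, adjusted p = 0.0557) and the ubiquitin-conjugating enzyme Ube2c (-0.58 ± 0.25, adjusted p = 0.0618) did not pass, and fell with the slide as a block (-0.81 ± 0.23, adjusted p = 0.00582, and -0.61 ± 0.16, adjusted p = 0.00331).

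Of the 14 genes of the spindle, kinetochore and cytokinesis, 11 fell with LPS. Kif23, the kinesin of the central spindle, went from 2.09, 2.50 and 2.80 to -2.83, -1.18 and -0.39, a change of -3.83 ± 0.33 or 14.2-fold (adjusted p = 3.71e-10). Bub1b, a spindle checkpoint kinase, went from 0.59, 0.75 and 1.46 to -3.32, -2.48 and -1.01 (change -3.28 ± 0.40, adjusted p = 1.64e-07). Ttk, another, went from -2.78, -2.33 and -1.94 to -7.20, -4.79 and -3.62 (change -2.65 ± 0.51, adjusted p = 0.000118), with 5 of the 7 LPS arrays well above background. All 3 genes had separate groups. Cenpe (0.11 ± 0.35), a kinetochore motor, and Tpx2 (0.24 ± 0.18), a spindle assembly factor, did not pass, nor did Nusap1 (-0.82 ± 0.34, adjusted p = 0.0556), which fell with the slide as a block (-0.90 ± 0.20, adjusted p = 0.00135).

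Of the genes of mitotic chromosomes, the proliferation marker Mki67 fell little after 4 h of LPS, from 4.36, 5.02 and 5.23 to 3.83, 4.52 and 4.83, a change of -0.51 ± 0.19 or 1.42-fold (adjusted p = 0.0366) with overlapping groups. The difference had the same sign on all 5 scan days (-0.84 to -0.28), but it did not pass with median scaling or normexp background correction, nor without each of 8 arrays in turn (untreated A, B, D, E and F and LPS A, C and E). Topoisomerase Top2a fell by 1.44 ± 0.38, or 2.71-fold (adjusted p = 0.00285).

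**Figure D2:**
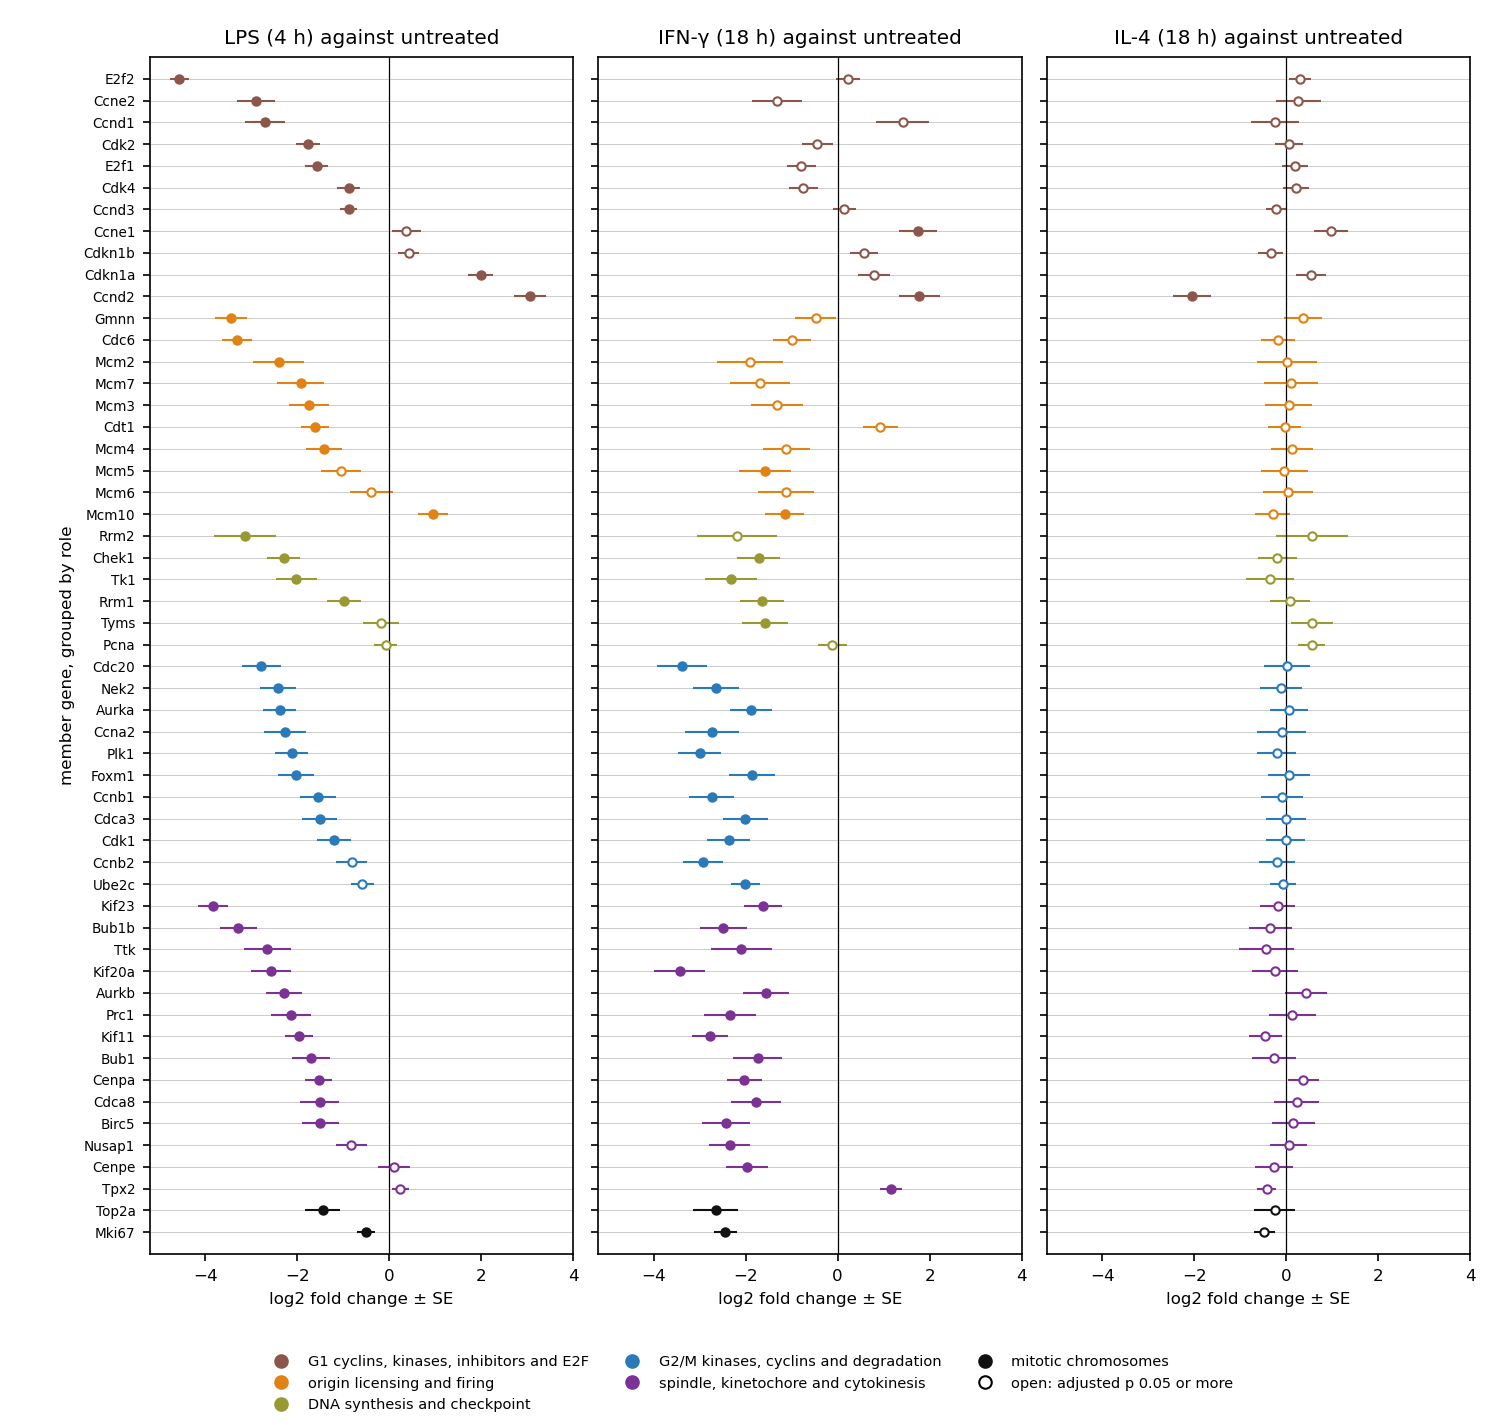
Log2 fold change (horizontal axis, with SE) of each of the 54 members against untreated cells after LPS for 4 h (7 arrays against 7), IFN-γ for 18 h (3 against 7) and IL-4 for 18 h (4 against 7), coloured by role and ordered within a role by the LPS change; filled points passed an adjusted p of 0.05. In the LPS panel 40 of 54 points are filled on the left, in the IFN-γ panel 26 of the 32 filled on the left are G2/M, spindle and chromosome genes, and in the IL-4 panel only Ccnd2 is filled.

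IFN-γ for 18 h lowered the genes of G2 and mitosis, while of the 11 G1 genes 0 fell and 2 rose. Of the 54 members, 32 fell and 3 rose, where 25.9% of all genes tested changed (12.7% higher and 13.2% lower). The median change of the members was -1.73, against -0.28 for all genes. Under median scaling, which moved that median of all genes to 0.16, 16 members fell and 6 rose. Of all genes 23% then changed (17.9% higher and 5.1% lower), and 77.9% of all called genes were higher, against 49%. The difference between the members' median and that of all genes was -1.44, which this scaling cannot change, since it shifts all genes of an array alike. The falls covered 11 of 11 G2/M, 13 of 14 spindle and 2 of 2 chromosome genes, but 4 of 6 synthesis, 2 of 10 licensing and 0 of 11 G1 genes. With the slide as a block, 42 members fell and 6 rose (33.3% of all genes changed), and the falls then included 8 of 10 licensing and 3 of 11 G1 genes. That fit rests mainly on experiments E and F, since the IFN-γ array of G shared its slide only with its IFN-γ plus LPS array. Leaving out the IFN-γ array of G in the fit without a block gave 42 called members, against 35 with it. On scan day 4, 45 members were lower in the 2 IFN-γ arrays (E and F) than in the 2 untreated arrays of that day (C and D). On day 5, with 1 array against 1 (IFN-γ G and untreated F), 44 were lower.

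Cdc20 lay at -0.51, -0.38 and 2.17 with IFN-γ in experiments E, F and G, below all 7 untreated arrays (3.60 to 4.21), a change of -3.38 ± 0.55 or 10.4-fold (adjusted p = 4.31e-05). Kif20a, a kinesin of cytokinesis, lay at -0.27, 0.08 and 2.38 against 3.71 to 4.42, a change of -3.43 ± 0.56 or 10.8-fold (adjusted p = 4.03e-05). For both genes the array of experiment G was far above the other two and still below every untreated array. Plk1, the polo-like kinase of mitotic entry, lay at -0.17, -0.11 and 1.58 against 2.78 to 4.07 (change -3.00 ± 0.46, adjusted p = 2.2e-05), Ccnb2 at 0.60, 0.99 and 2.94 against 4.12 to 4.74 (change -2.93 ± 0.43, adjusted p = 1.26e-05) and the spindle motor Kif11 at -3.45, -3.54 and -2.40 against -0.77 to 0.03 (change -2.78 ± 0.39, adjusted p = 6.82e-06). Bub1b lay at -1.93, -2.09 and -0.69 (change -2.49 ± 0.51, adjusted p = 0.000634). Each of these genes had groups that did not overlap, as had 27 of the 54 members, against 24.9% of all genes.

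Mki67, which had moved little with LPS, lay at 2.26, 2.07 and 3.25 with IFN-γ, all below the lowest untreated array (4.36). Its change was -2.44 ± 0.25 or 5.43-fold (adjusted p = 5.88e-08), and that of Top2a, at -2.04, -1.81 and -0.60 against 0.50 to 1.73, was -2.65 ± 0.49 (adjusted p = 0.000198). Among the synthesis genes Tk1 (-2.32 ± 0.57, adjusted p = 0.00332), Chek1 (-1.72 ± 0.47, adjusted p = 0.0076), Rrm1 (-1.64 ± 0.48, adjusted p = 0.0128) and Tyms (-1.58 ± 0.50, adjusted p = 0.0222) fell. Rrm2 had a large change that did not pass (-2.18 ± 0.86, adjusted p = 0.0654), with arrays at -2.70, -2.43 and 0.48, and passed with the slide as a block (-2.53 ± 0.48, adjusted p = 0.000605). The array at 0.48, of experiment G, bears little on the fit with that block, since its slide held no untreated array.

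The licensing genes were spread more widely between the 3 IFN-γ arrays than the G1 genes. Their mean level was 1.44, 1.84 and 3.42, against 2.22 to 3.93 in untreated cells. Mcm5, at 0.82, 1.55 and 2.56, fell by 1.58 ± 0.56 (adjusted p = 0.0382), and Mcm10, at 1.13, 1.45 and 3.36, by 1.15 ± 0.43 (adjusted p = 0.0479), the opposite direction to its rise with LPS. Both calls were near the threshold and ended with median scaling, with normexp background correction or without some single arrays. Gmnn lay at 3.91, 3.81 and 5.36 and did not pass (-0.48 ± 0.45, adjusted p = 0.443), nor did Cdt1, the licensing factor that geminin binds, at 4.79, 4.95 and 5.78 (0.93 ± 0.39, adjusted p = 0.081).

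No G1 gene fell with IFN-γ in the fit without a block. E2f2 lay at 2.97, 2.42 and 3.77, within and just above the untreated range, with a change of 0.23 ± 0.27 (adjusted p = 0.541). Ccnd1 lay at 5.23, 5.28 and 5.44, above all 7 untreated arrays, although the change of 1.42 ± 0.57 did not pass (adjusted p = 0.0708). With the slide as a block, resting mainly on experiments E and F, the change was 1.57 ± 0.42 (adjusted p = 0.00825). Ccnd2, at 3.78, 4.34 and 5.04, was also above every untreated array and rose by 1.78 ± 0.45 or 3.43-fold (adjusted p = 0.00393). The E cyclins differed: Ccne1, at 3.70, 2.83 and 3.86, rose by 1.75 ± 0.41 (adjusted p = 0.00215), while Ccne2, at -2.50, -2.45 and -1.15, had a change of -1.32 ± 0.54 that did not pass (adjusted p = 0.077) and fell with the slide as a block (-1.76 ± 0.28, adjusted p = 0.000117). The Ccne2 array at -1.15, of experiment G, bears little on the fit with that block. Tpx2, a spindle gene by role, rose with IFN-γ, at 3.00, 3.31 and 2.65 against 1.16 to 2.29 in untreated cells (1.17 ± 0.23, adjusted p = 0.000502), and rested on 1 probe.

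IL-4 for 18 h changed 1 of the 54 members. Ccnd2 lay at 0.37, 0.71, -0.51 and 1.69 with IL-4 against 1.13, 2.90 and 3.74 in untreated cells, a fall of 2.04 ± 0.41 or 4.12-fold (adjusted p = 0.000918). The IL-4 array of experiment G lay within the untreated range (the groups did not overlap for 1 member, Cenpa, higher with IL-4 by 0.38 ± 0.34 with an adjusted p of 0.602, where 6.6% of all genes were apart and higher and 6.11% apart and lower), and the difference had the same sign on each of the 3 scan days that held both groups (-2.37 to -1.63). Of all genes, 11.3% changed with IL-4 (5.77% higher and 5.53% lower), and the median change was -0.01 for the members and 0.01 for all genes. The intervals leave room for moderate changes in the other members. The 95% interval was -0.19 to 0.81 for E2f2, -1.01 to 1.06 for Cdc20, -0.97 to 0.61 for Kif23 and -1.31 to 1.37 for Mcm2, and that of Ccne1 was 0.21 to 1.75 before adjustment over all genes (adjusted p = 0.0994). The 3 comparisons with untreated cells share those 7 arrays.

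**Figure D3:**
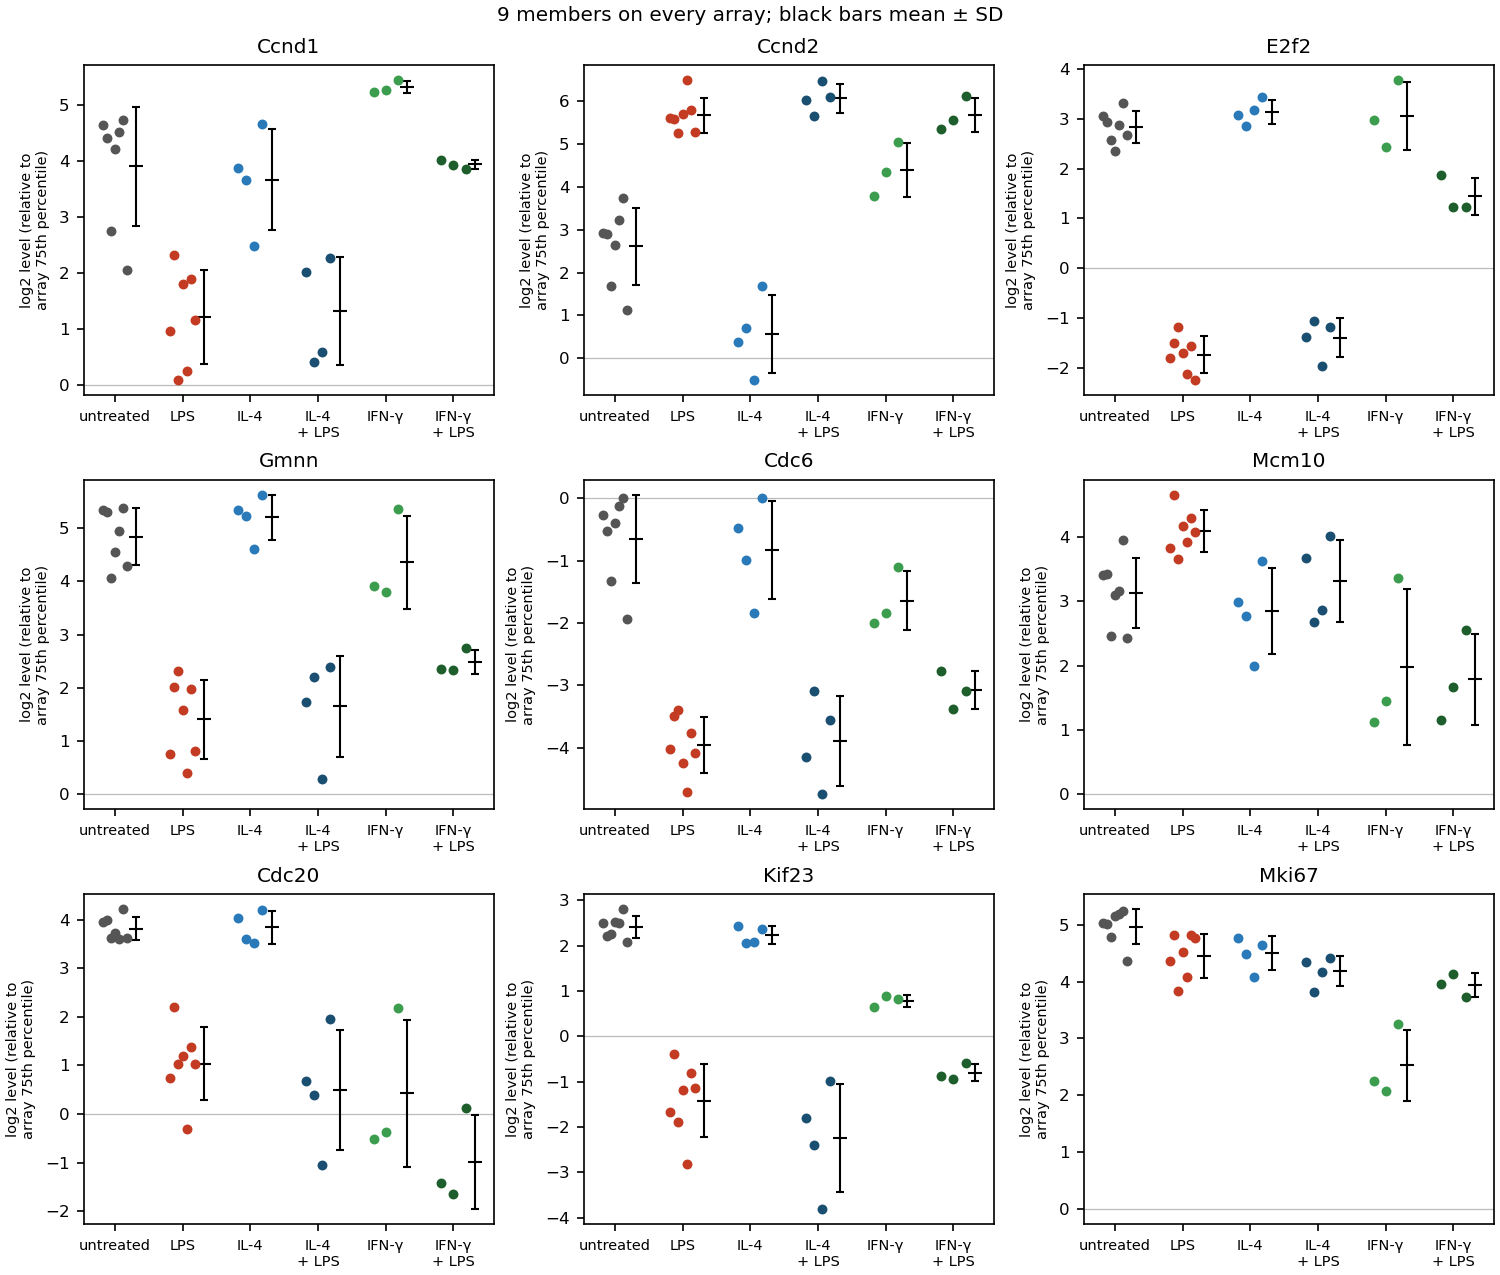
Log2 level, relative to the array's 75th percentile, of 9 members on every array; points are arrays, black bars the mean and SD of a group. E2f2 is low in all 11 LPS arrays without IFN-γ (-2.24 to -1.06) and at 1.22 or higher elsewhere, Ccnd2 is at 5.26 or higher in the 14 arrays with LPS, and Mki67 is lowest with IFN-γ alone (2.07 to 3.25).

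A direct comparison of IFN-γ with LPS, added after the data had been seen, set 18 h of one agent against 4 h of the other, so agent and time cannot be told apart. Of the 54 members 11 were higher and 9 lower with IFN-γ, where 32.8% of all genes differed (15.3% higher and 17.5% lower). In number this was near the share of all genes. With median scaling 11 were higher and 4 lower. Of the 22394 genes 6112 were then called, 68.8% of them higher, against 46.5%. The higher members were 6 of 11 G1 genes, 3 of 10 licensing genes and 2 of 14 spindle genes. E2f2 was 27.6-fold higher with IFN-γ (4.79 ± 0.27, adjusted p = 1.91e-12), Ccnd1 17.3-fold (4.11 ± 0.57, adjusted p = 3.65e-06) and Gmnn 7.74-fold (2.95 ± 0.45, adjusted p = 1.29e-05). Cdt1 (2.54), Cdc6 (2.32), Kif23 (2.20), Ccne2 (1.57), Ccne1 (1.38), Cdk2 (1.33), Ccnd3 (1.03) and Tpx2 (0.92) were also higher. The lower members included Ccnb2 (-2.12 ± 0.43, adjusted p = 0.000426), Mcm10 (-2.10 ± 0.43, adjusted p = 0.000389), Cenpe (-2.07) and Mki67 (-1.93 ± 0.25, adjusted p = 1.43e-06), with Nusap1, Ube2c, Tyms, Ccnd2 and Cdkn1a between -1.52 and -1.20. With the slide as a block, resting mainly on experiments E and F for IFN-γ, 12 members were higher and 23 lower, among them 8 of 11 G2/M genes.

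LPS lowered most members after IL-4 as well. Against IL-4 alone, 39 members fell and 3 rose, where 31.3% of all genes changed (15% higher and 16.3% lower), with a median of -1.90 for the members and 0.14 for all genes. The falls covered 11 of 11 G2/M, 12 of 14 spindle, 7 of 10 licensing, 3 of 6 synthesis and 5 of 11 G1 genes. E2f2 went from 3.07, 2.86, 3.18 and 3.43 to -1.38, -1.06, -1.95 and -1.17 in experiments A, B, C and G, a change of -4.53 ± 0.27 or 23.1-fold (adjusted p = 1.75e-12). Kif23 went from 2.44, 2.05, 2.08 and 2.36 to -1.80, -2.40, -3.81 and -0.99, a change of -4.48 ± 0.43 or 22.3-fold (adjusted p = 7.23e-09). These were 2 of 34 members whose groups did not overlap, against 29.9% of all genes, and another was Gmnn, which went from 5.35, 5.23, 4.62 and 5.62 to 1.74, 2.20, 0.29 and 2.39 (change -3.55 ± 0.46, adjusted p = 9.26e-07).

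Ccnd2 rose further with LPS after IL-4 than without it. It went from 0.37, 0.71, -0.51 and 1.69 with IL-4 to 6.03, 5.65, 6.46 and 6.09 with IL-4 plus LPS, a rise of 5.49 ± 0.46 or 45.0-fold (adjusted p = 5.77e-10), against 3.06 in unprimed cells. The interaction, the difference between these 2 changes, was 2.43 ± 0.57 (adjusted p = 0.0251), the only one called among the 54 members, a count near the share of all genes called, 1.59% (0.906% higher and 0.683% lower). It did not pass with median scaling (adjusted p = 0.214), with normexp background correction (adjusted p = 0.19), with the experiment letter as a block (adjusted p = 0.0529), when only experiments A, B, C and G were used (adjusted p = 0.189), or without the arrays IL-4 A, IL-4 C or IL-4 plus LPS C in turn. The levels after LPS differed little between unprimed and IL-4 primed cells (difference 0.39, 95% interval -0.45 to 1.23), while those before LPS differed as given above for IL-4. Cdkn1a (2.03 ± 0.36, adjusted p = 7.12e-05) and Tpx2 (0.69 ± 0.24, adjusted p = 0.0286) rose with LPS in IL-4 primed cells too.

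Between IL-4 plus LPS and LPS alone, 1 member differed, where 8.98% of all genes did (4.38% higher and 4.6% lower). Cenpe lay at 3.81, 2.41, 2.16 and 4.03 with IL-4 plus LPS against 3.88, 4.46 and 5.01 with LPS, lower by 1.33 ± 0.41 on the log2 scale (adjusted p = 0.0432). The groups overlapped through the array of experiment G, and the call ended under several alternatives, such as median scaling or leaving out single LPS arrays. With the slide as a block, 7 members were lower and 1 higher (17.2% of all genes differed): Mcm6, Mcm10, Cdk1, Ccnb1, Ccnb2 and Plk1 were lower besides Cenpe, by 0.82 to 1.26 on the log2 scale, and Tyms was higher by 0.79.

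LPS after IFN-γ was measured on 3 arrays against 3, from starting levels at which the mitotic genes were already low. Against IFN-γ alone, 6 members fell and 1 rose, where 11.9% of all genes changed (5.64% higher and 6.26% lower), with a median of -0.92 for the members and 0.14 for all genes. In number the members called in this fit without a block were near the share of all genes. The count depended on the block: with the slide as a block 34 fell and 6 rose (31.1% of all genes changed). Slide and experiment letter coincided for these arrays, so that block also pairs them by experiment, and slide and experiment were not told apart. On scan days 4 and 5 taken alone 43 and 48 members were lower. Leaving out 1 of the arrays IFN-γ G, IFN-γ plus LPS E or IFN-γ plus LPS F lowered the count of called members from 7 to 2. E2f2 went from 2.97, 2.42 and 3.77 to 1.87, 1.24 and 1.22, a change of -1.61 ± 0.32 or 3.06-fold (adjusted p = 0.00101). Gmnn went from 3.91, 3.81 and 5.36 to 2.36, 2.34 and 2.75 (-1.88 ± 0.53, adjusted p = 0.0201) and Kif23 from 0.64, 0.89 and 0.83 to -0.88, -0.94 and -0.59 (-1.59 ± 0.50, adjusted p = 0.0366). These groups did not overlap, and Bub1b (-1.98), the chromosomal passenger kinase Aurkb (-1.81) and Ccnd3 (-0.90) also fell, the last of them not with the letter as a block (adjusted p = 0.0697). Mki67 rose, from 2.26, 2.07 and 3.25 to 3.96, 4.13 and 3.72, a change of 1.41 ± 0.30 or 2.66-fold (adjusted p = 0.00194).

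The IFN-γ by LPS interaction, which asks whether the LPS change differed between IFN-γ primed and unprimed cells, was called for 4 members, all positive, where 8.33% of all genes were called (3.04% higher and 5.3% lower). For E2f2 it was 2.95 ± 0.38 (adjusted p = 1.32e-05): a change of -4.56 without and of -1.61 with IFN-γ, and it passed under all 31 alternatives. For Kif23 it was 2.24 ± 0.59 (adjusted p = 0.0176). For Mki67, which fell with LPS alone and rose with LPS after IFN-γ, it was 1.92 ± 0.35 (adjusted p = 0.00076). Both calls ended with median scaling (adjusted p = 0.171 for Kif23 and 0.0957 for Mki67) and with only experiments E, F and G (0.0677 and 0.11), and that of Mki67 also with normexp background correction (0.0778). Cdc6, which lay at -1.99, -1.83 and -1.10 with IFN-γ and at -2.77, -3.38 and -3.10 with IFN-γ plus LPS, had an interaction of 1.87 ± 0.58 (adjusted p = 0.0471) that was lost under 21 of 31 alternatives. With the slide as a block 15 members had a positive and 2 a negative interaction (18.6% of all genes were called); the negative ones were Ccnd2 (-1.58 ± 0.51, adjusted p = 0.0388) and Mcm10 (-1.10 ± 0.31, adjusted p = 0.0208).

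**Figure D4:**
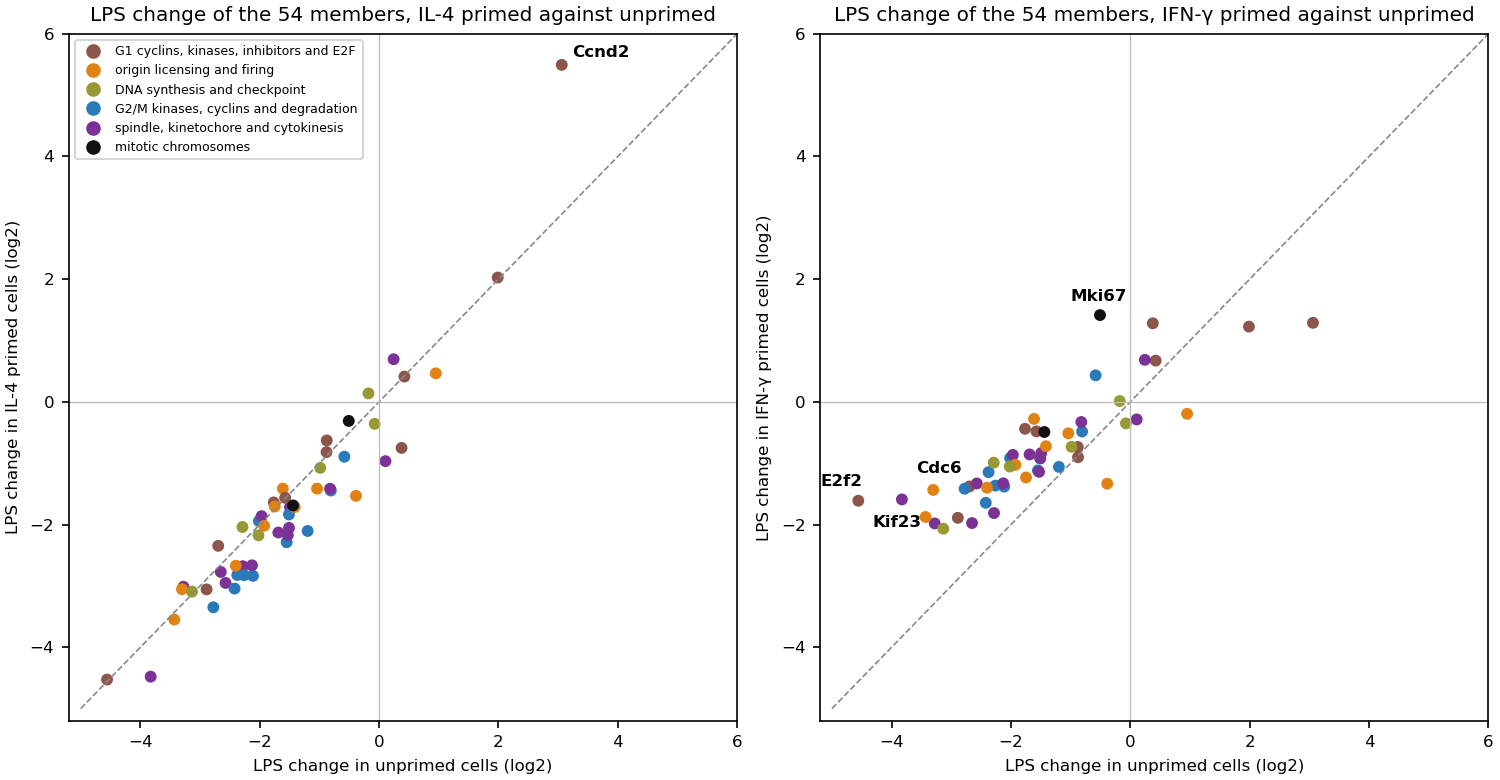
Log2 change after LPS of each of the 54 members in unprimed cells (horizontal axis) against the change in IL-4 primed (left) or IFN-γ primed cells (right), coloured by role; the dashed line marks equal change, and the members with a called interaction are named. On the left Ccnd2 lies above the line (3.06 against 5.49) and a few members, such as Mcm6 (-0.39 against -1.53), lie over 1 log2 unit below it, and on the right most lie above it on the side of the falls, such as E2f2 (-4.56 against -1.61).

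After LPS, IFN-γ primed cells had 5 members higher and 20 lower than unprimed cells, where 22.8% of all genes differed (10.7% higher and 12.2% lower). With median scaling 6 were higher and 6 lower, where 15.7% of all genes differed (11.4% higher and 4.29% lower). Of all called genes 72.6% were then higher, against 46.8%. With the slide as a block, resting mainly on experiments E and F for IFN-γ, 9 were higher and 35 lower (33.9% of all genes differed). The higher members act in G1 and licensing apart from Tpx2 (1.61 ± 0.23, adjusted p = 1.76e-05). E2f2 was 9.03-fold higher (3.17 ± 0.27, adjusted p = 7.18e-09), Ccnd1, at 4.03, 3.92 and 3.86 against 0.08 to 2.31, was 6.64-fold higher (2.73 ± 0.57, adjusted p = 0.000912), Ccne1, at 5.13, 4.54 and 4.56 against 1.77 to 2.42, was 6.31-fold higher (2.66 ± 0.41, adjusted p = 3.43e-05) and Cdt1, at 4.88, 5.29 and 4.51 against 1.83 to 3.66, was 4.81-fold higher (2.27 ± 0.39, adjusted p = 0.000117). The lower ones were led by Ccnb2 (-2.61 ± 0.43, adjusted p = 8.29e-05), Cenpe (-2.36), Ccnb1 (-2.31) and Mcm10 (-2.30 ± 0.43, adjusted p = 0.000275), and included 9 of 11 G2/M genes. Leaving out the IFN-γ plus LPS array of experiment E or F lowered the count from 25 to 14 or 16.

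The primed groups were also set against each other. With IL-4, 31 members were higher and 3 lower than with IFN-γ, where 28% of all genes differed (14.9% higher and 13.1% lower). Median scaling gave 15 higher and 4 lower, where 21.5% of all genes differed, and 27.6% of all called genes were higher, against 53.3%. The 3 lower ones before median scaling were Ccnd2 (-3.82 ± 0.49, adjusted p = 1.4e-06), Tpx2 (-1.59) and Cdkn1b (-0.91 ± 0.34, adjusted p = 0.0451), the last of them lost under 12 alternatives, with the letter as a block among them (adjusted p = 0.108), and 11 of 11 G2/M genes were higher, led by Cdc20 (3.41 ± 0.61, adjusted p = 0.000114). With LPS added, 8 members were higher and 7 lower in IL-4 primed cells, where 25.6% of all genes differed (13.9% higher and 11.7% lower). In number these members were near the share of all genes. E2f2 (-2.83), Ccne1 (-2.81), Ccnd1 (-2.62) and Cdt1 (-2.10) were lower after IL-4 plus LPS than after IFN-γ plus LPS, and Tyms (2.27), Ccnb2 (1.77), Birc5 (1.70) and Mcm10 (1.52) were higher. Median scaling gave 0 higher and 7 lower, where 4380 of the 22394 genes were called (25.3% of them higher, against 54.4%). With the slide as a block, resting mainly on experiments E and F for IFN-γ, 30 were higher and 9 lower (30.4% of all genes differed).

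Other genes of the same pathways, 107 in 4 lists that were drawn up with earlier results of these data known, were counted in the same way: with LPS 71 fell and 10 rose, where 21.6% of all genes fell and 20.9% rose. Among 37 factors of the replication fork and origins, 26 fell and 2 rose; the DNA polymerase subunit Pole2 (-3.81 ± 0.39), the repair gene Brca1 (-3.17 ± 0.27) and the origin kinase Cdc7 (-2.63 ± 0.24) fell most. Among 38 other mitosis genes, 31 fell and 1 rose; Ccnf (-3.41 ± 0.32), Fbxo5 (-3.39 ± 0.32), an inhibitor of the anaphase-promoting complex, and the phosphatase Cdc25b (-3.15 ± 0.33) fell most, and the securin gene Pttg1 rose by 2.33. Of 16 regulators of the RB, E2F and DREAM system, 10 fell and 2 rose, with E2f7 (-3.90 ± 0.44) and Tfdp2 (-3.87 ± 0.48) falling and the RB relative Rbl1 rising (1.86). Among 16 other G1 regulators 5 rose and 4 fell, which is near the share of all genes (42.4% in either direction), with Skp2, the ubiquitin ligase subunit that removes p27, at -3.32 ± 0.23 and the inhibitor Cdkn2c at -2.45 ± 0.29. For the falling genes named here with their changes, the adjusted p was 2.3e-07 or lower.

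With IFN-γ the falls lay mostly in the mitosis list. Of the 38 other mitosis genes 36 fell and 1 rose, against 9 of 37 fork and origin factors that fell and 1 that rose, 4 of 16 RB and E2F regulators that fell and 3 that rose, and 3 of 16 other G1 regulators that fell and 1 that rose; of all genes, 13.2% fell and 12.7% rose. With IL-4, 1 of the 107 rose and 1 fell, where 11.3% of all genes changed. LPS after IL-4 lowered 65 and raised 9, where 16.3% of all genes fell and 15% rose. LPS after IFN-γ lowered 12 and raised 4, where 6.26% of all genes fell and 5.64% rose.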

How the data were processed

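The deposited scanner files of 28 one-colour (Cy3) arrays were used. Per the file headers and the submitters' processing notes, the processed signal intensity was made with Agilent Feature Extraction 9.5.1, with background correction and spatial detrending within an array and no scaling between arrays. From these deposited intensity values, log2 of the processed signal minus the array's 75th percentile was computed, outlier spots were left out and spots of a probe were averaged. The deposited background flags gave the filter (well above background on 3 or more arrays). Of 41174 probes, 22951 were named through their accession, 6659 by symbol, 3109 by synonym and 8455 by the array's own name. A table of processed values for the series, with 28 columns, was not used: 26 columns correlated best with an array other than the one they are labelled with, 13 of them one of another group. Whether the table or the scanner files carry the right labels is not given in the sources used here, so every group comparison rests on the labels of the scanner files being right.

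Changes were tested with limma 3.58.1 in R 4.3.3 (group means, no block, two-sided, Benjamini-Hochberg over 22394 genes), checked first on simulated data. Promoter sequences are from RefSeq, GRCm38.p6. The number of arrays limits the precision. The members and gene lists were chosen with earlier results of these data known. Every member could be named. Array-by-array values were given in each role for at most 3 members past the threshold, ranked by the size of their change, for members that moved against most of their role and for those with a called interaction; some further members of interest were named after their values had been seen.

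The experiment letters are shared between groups, so their pairing was checked by correlating deviations from the group means. Arrays of one letter correlated at 0.153 to 0.73 between IL-4 and IL-4 plus LPS and at 0.282 to 0.641 between IFN-γ and IFN-γ plus LPS. Arrays of one slide correlated at 0.396 to 0.73 and at 0.282 to 0.641. Letter and slide coincided for all IFN-γ arrays and for IL-4 arrays C and G. Pairing by letter was therefore not told apart from sharing a slide for those arrays. IL-4 arrays A and B shared their slides with the IL-4 plus LPS arrays of the other letter. The lowest correlation by letter, 0.153, came from A or B, since it lies below the lowest by slide, 0.396. Letter and slide were not compared by a test there. Between untreated and LPS arrays the correlation was -0.499 to 0.162 by letter but 0.421 to 0.648 by slide, so the letters do not pair them. Alternatives were a block for letter, slide or scan day, normexp background correction, quantile or median scaling and other filters. Further ones were other sample choices, the mean of all probes of a gene and leaving out each array. Of the members, 22 had several probes that passed the background filter. In none did another probe change opposite to the brightest one with an unadjusted limma p under 0.05 for both.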

Additional observations from a re-analysis of the deposited data

Results flagged for a closer look

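The levels of the 54 members were screened in each of the untreated, LPS, IL-4 and IL-4 plus LPS groups, which held 4 or 7 arrays. In 6 cases 1 array was far from the rest by Dixon's criterion, which chance meets in about 1 group in 20. At that rate chance would give more than 6, so these cases are listed only as values to check. The LPS array of experiment E was high for Ccnd2 (6.48, the others 5.26 to 5.78) and low for Aurka (-0.20, the others 0.98 to 1.79). The untreated array of experiment G was low for Chek1 (-3.77, the others -2.29 to -1.24) and for Nusap1 (1.01, the others 1.87 to 2.10). The IL-4 array of experiment G was high for Ccnd3 (2.45, the others 1.28 to 1.41), and the IL-4 plus LPS array of experiment B was low for Cdkn1a (4.61, the others 6.37 to 6.60).

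The LPS change differed between primed and unprimed cells by a test of the difference itself for 5 members: Ccnd2 with IL-4 (interaction 2.43 on the log2 scale), and E2f2 (2.95), Kif23 (2.24), Mki67 (1.92) and Cdc6 (1.87) with IFN-γ, as limma interactions with adjusted p-values given with the results. With both directions pooled, the counts for IL-4 and for IFN-γ were near the shares of all genes given there. All 4 with IFN-γ were positive, where 3.04% of all genes were higher and 5.3% lower. With the slide as a block 15 members were positive and 2 negative for IFN-γ, where 7.86% of all genes were higher and 10.7% lower.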

How the results depend on the processing

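The 54 members gave 228 called changes over 12 comparisons, and none reversed under any alternative. All 228 passed with the slide or the scan day as a block and with a filter of 14 arrays; 213 passed with the experiment letter as a replicate block, 225 with the mean of all probes, 218 with no filter, 214 with quantile normalization, 197 with only the groups compared, 177 with normexp and 148 with median scaling; of 179 that could be fitted with only shared experiments, 120 passed. The cause of these losses was not tested.

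The share of all genes called also moved with the setting. For IFN-γ plus LPS against IFN-γ it was 11.9% as above, 31.1% with slide, 23.3% with scan day and 6.23% with median scaling. For IFN-γ plus LPS against LPS it was 22.8%, 33.9%, 30.6% and 15.7% in that order. For the IFN-γ by LPS interaction it was 8.33%, 18.6%, 16.3% and 4.66%. Counts of called members moved by over 1.5 times as follows. For IFN-γ plus LPS against IFN-γ (7) they were 40 with the slide as a block, 33 with the scan day, 4 with quantile normalization, 3 with only the groups compared and with only shared experiments, 2 with normexp and 1 with median scaling. For IFN-γ plus LPS against LPS (25) they were 44 with slide, 42 with scan day, 12 with median scaling and 8 with shared experiments. For the IFN-γ by LPS interaction (4) they were 17, 16, 1 and 1 in that order, and 2 with normexp. For IL-4 plus LPS against IFN-γ plus LPS (15) they were 39 with slide, 35 with scan day, 9 with normexp, 7 with median scaling and 6 with only the groups compared. For IL-4 plus LPS against LPS (1) they were 8 with slide, 7 with scan day and 0 with normexp, median scaling, no filter, only the groups compared and shared experiments. For IFN-γ against LPS (20) they were 35 with slide and 12 with shared experiments. For IFN-γ against untreated (35) they were 22 with median scaling and 17 with shared experiments, and for IL-4 against IFN-γ (34) 19 with median scaling. For IL-4 against untreated (1) they were 2 with scan day and with quantile normalization and 0 with shared experiments. For the IL-4 by LPS interaction (1) they were 0 with the letter as a replicate block, normexp, median scaling and shared experiments.

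With the letter as a replicate block, 44 members were called for IL-4 plus LPS against IL-4 and 6 for IFN-γ plus LPS against IFN-γ. The block gave each letter a single effect over all groups, among them the untreated and LPS arrays that letters do not pair. These counts are therefore not the result of pairing arrays within the primed groups. For LPS against untreated, 46 were called.

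Leaving out each array in turn gave 41 to 47 called members for LPS, 1 to 2 for IL-4 (2 without untreated F), 26 to 42 for IFN-γ, 32 to 47 for IL-4 plus LPS against IL-4, 2 to 8 for IFN-γ plus LPS against IFN-γ, 0 to 2 for IL-4 plus LPS against LPS (0 without LPS A, B, D, F or G, among others), 14 to 30 for IFN-γ plus LPS against LPS, 0 to 1 and 3 to 5 for the IL-4 and IFN-γ interactions, 21 to 42 for IL-4 against IFN-γ (21 and 22 without IFN-γ E and F), 7 to 24 for IL-4 plus LPS against IFN-γ plus LPS (7 without IFN-γ plus LPS E or F, 24 without IL-4 plus LPS C) and 16 to 26 for IFN-γ against LPS.

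A fit to the deposited value table was not run, since its columns and the scanner files disagree on the sample labels, and shared experiments could not be fitted for IL-4 against IFN-γ with or without LPS, which share only experiment G. Depth does not apply to arrays; signal was near background for Ttk only, which was well above it on 2 of 4 IL-4 plus LPS and 1 of 3 IFN-γ plus LPS arrays.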
